A study of Mus musculus with 12 samples.

Results

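Expression of 7 transcription regulators of the testis was followed through meiosis and into spermatids: *Mybl1*, *Rfx2*, *Crem*, *Fhl5*, *Tbpl1*, *Gtf2a1l* and *Taf7l*. The members were taken by name, as all probesets whose platform annotation names exactly 1 of these genes, which gave 15 of 45037 probesets and 7 of the 18161 genes with such a probeset. The cells were sorted by flow cytometry from testes of mice that the labels give as 8 to 10 weeks old. The 2 inbred strains were PWD/Ph (PWD), which derives from wild *Mus musculus musculus*, and C57BL/6J (B6), a laboratory strain of mostly *M. m. domesticus* origin. Each strain gave 3 populations, namely prepachytene spermatocytes (from leptotene and zygotene up to early pachytene), pachytene spermatocytes (those of mid-late pachytene and of diplotene) and spermatids. With 2 strains this made 6 groups of 2 arrays. The labels do not say whether a replicate number marks an animal, so that p-values measure the spread between these arrays only. In sorted bulk RNA, fewer cells of a type and less RNA per cell cannot be told apart.

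Male germ cells run an unusual transcription programme, in which testis-specific relatives replace or accompany general factors. MYBL1 (A-MYB) activates meiotic genes and piRNA precursors in mouse pachytene spermatocytes, and RFX2 acts with it on genes of spermatids and cilia. CREM binds cAMP response elements and switches on genes of haploid cells, with FHL5 (ACT) as its coactivator. TBPL1 (TRF2) is a relative of the TATA-binding protein, GTF2A1L (ALF) is the germ cell counterpart of the large TFIIA subunit GTF2A1, and TAF7L is the X-linked relative of the TFIID subunit TAF7. Mice without CREM, RFX2 or TBPL1 make spermatids that do not complete their differentiation, and mice without MYBL1 arrest in pachytene.

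The promoter windows of RefSeq on the GRCm38.p6 build, which hold 250 bases before and 50 bases after a start site, were matched by symbol for 5 of the 7 genes and gave 6 windows. *Crem* and *Mybl1* had no entry. Both strands were searched for TGACGTCA (the full cAMP response element), TGACG (its shorter form), CAACTG (a MYB site) and GTTGCCA (an arm of the X-box that RFX factors bind). The shorter cores CAACNG for MYB and GTTGCC for RFX were added after the windows had been seen. Of all 32851 windows, 1.79% hold TGACGTCA, 20.8% TGACG, 13.7% CAACTG, 4.38% GTTGCCA, 35.0% CAACNG and 12.5% GTTGCC. The windows of *Rfx2* and *Gtf2a1l* are shown because both genes were higher in pachytene than in prepachytene spermatocytes and both windows hold a MYB core and an RFX core. Capitals mark matches to TGACG and to both cores on either strand, and the last MYB core of *Rfx2* overlaps its RFX core.
*Rfx2* (chr17:56830959-56831258, minus strand): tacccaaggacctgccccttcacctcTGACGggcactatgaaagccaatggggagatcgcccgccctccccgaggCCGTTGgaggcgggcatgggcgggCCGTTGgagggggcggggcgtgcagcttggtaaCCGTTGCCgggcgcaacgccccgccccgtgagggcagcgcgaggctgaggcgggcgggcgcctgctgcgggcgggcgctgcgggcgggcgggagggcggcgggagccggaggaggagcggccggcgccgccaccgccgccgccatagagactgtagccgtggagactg
*Gtf2a1l* (chr17:88668410-88668709, plus strand): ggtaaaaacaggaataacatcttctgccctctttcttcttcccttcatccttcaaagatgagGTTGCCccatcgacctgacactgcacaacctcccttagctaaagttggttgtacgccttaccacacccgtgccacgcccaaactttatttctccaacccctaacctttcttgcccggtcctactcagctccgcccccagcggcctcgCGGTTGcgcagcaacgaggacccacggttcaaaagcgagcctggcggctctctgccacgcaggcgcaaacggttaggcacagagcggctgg
The window of *Rfx2* held 1 TGACG, 3 CAACNG and 1 GTTGCC, and that of *Gtf2a1l* held 1 CAACNG and 1 GTTGCC. The window of *Taf7l* held 1 CAACTG, which the core CAACNG includes, while those of *Tbpl1* (1 window) and *Fhl5* (2 windows) held none of the letters searched. A match describes the letters and was not tested as a binding site.

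Values are log2 expression values, so that a difference of 1 is a 2-fold change. A background level of 5.41 was taken from 54 probesets for genes of other organs, such as liver or brain, 95% of which had a lower mean. A gene is represented by its brightest probeset, and levels of different probesets are not compared. Of the 15 member probesets, 10 had a mean above the background level, 1 or more for each of the 7 genes, and 5 did not. Replicate arrays correlated at r = 0.987 to 0.996. Each population had the highest mean of its own markers, but spermatid markers were also higher in prepachytene than in pachytene spermatocytes. The 17 measured markers of prepachytene meiosis averaged 11.77 to 12.07 on the prepachytene arrays, against 7.31 to 8.14 on the pachytene and spermatid arrays. The 14 markers of pachytene and diplotene averaged 10.60 to 10.77 on prepachytene, 12.997 to 13.49 on pachytene and 12.18 to 12.50 on spermatid arrays. The 20 spermatid markers were above background on all 12 arrays, with a mean of 11.27 to 11.58 in PWD and 10.58 to 10.62 in B6 prepachytene spermatocytes, 9.68 to 10.36 in PWD and 9.89 to 9.97 in B6 pachytene spermatocytes, and 12.85 to 13.31 in PWD and 13.73 to 13.74 in B6 spermatids. Of 12 Sertoli cell markers, 6 to 8 were above background in PWD and 5 in B6 prepachytene spermatocytes, and 2 to 5 in the other groups. Of 11 spermatogonia markers, 6 to 8 were above background in PWD and 5 in B6 prepachytene spermatocytes. In pachytene spermatocytes of either strain it was 1, and in spermatids 2 to 3 in PWD and 1 in B6. The part of these cells and of spermatid RNA in the prepachytene values, the baseline of the step into pachytene, was not tested. Of 6 Leydig cell markers at most 1 was above background on any array.

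**Figure D1:**
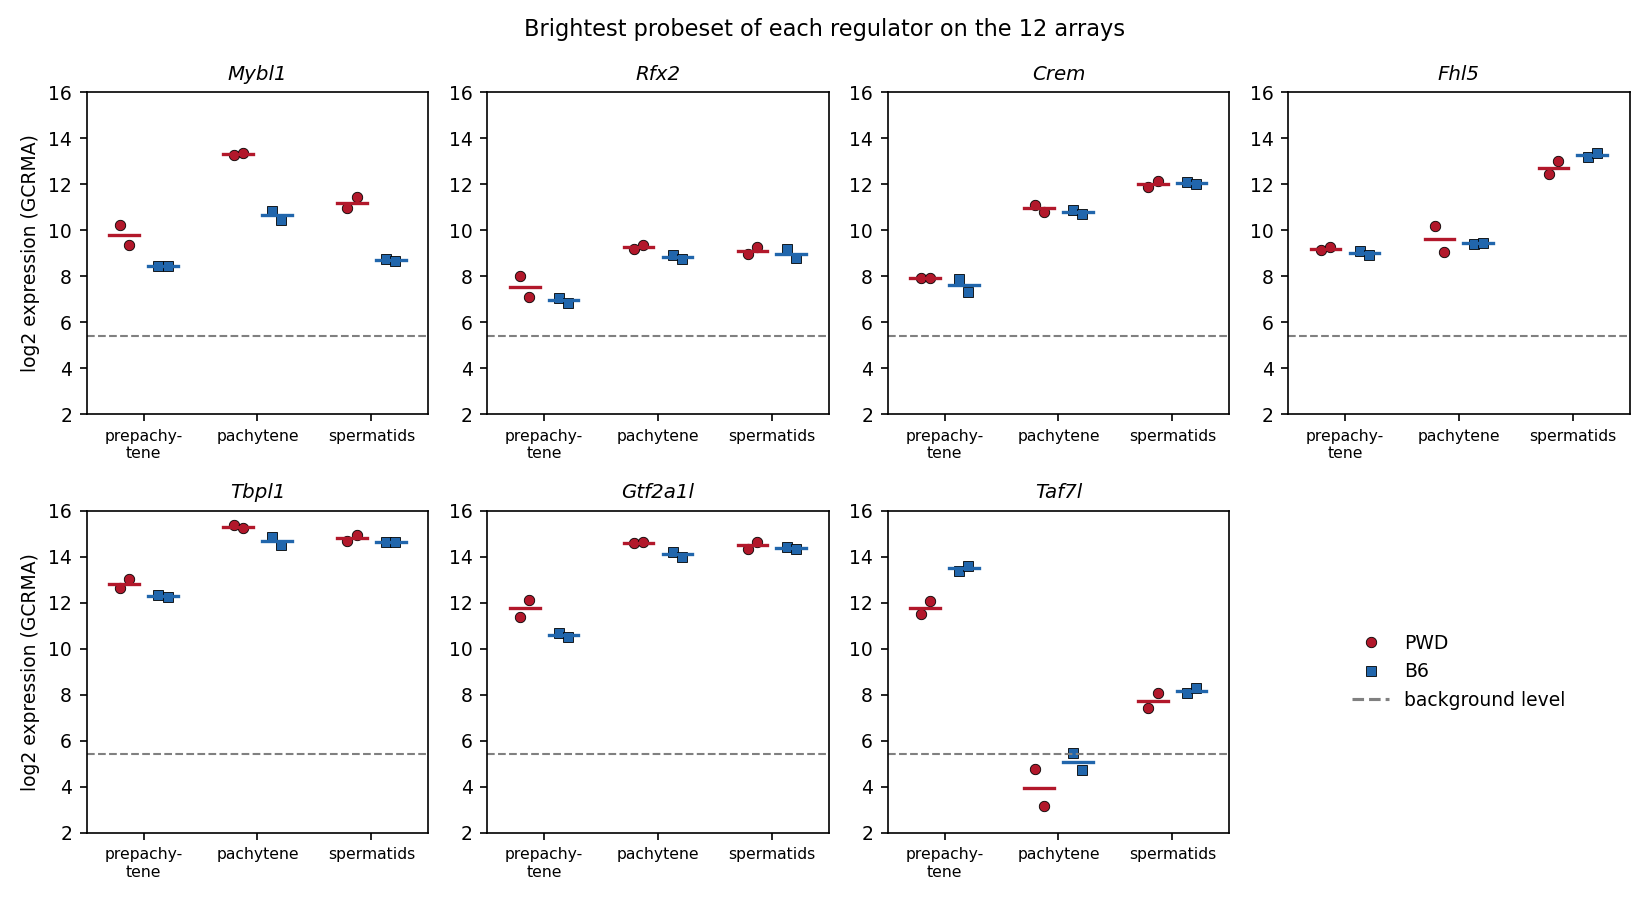
Log2 expression (y axis) of the brightest probeset of each of the 7 regulators on the 12 arrays, by population (x axis). Red circles are PWD arrays, blue squares are B6 arrays, short lines are group means, and the background level of 5.41 is dashed. *Mybl1* is higher in PWD in each population, and *Taf7l* is near or below the background level in pachytene spermatocytes, with 3 of 4 arrays below it.

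In the step into pachytene, 5 of the 7 genes were higher (*Mybl1*, *Rfx2*, *Crem*, *Tbpl1* and *Gtf2a1l*), 1 was lower (*Taf7l*) and *Fhl5* did not pass the test. Among the 8804 genes above background, 42.3% were higher and 40.6% were lower in this comparison. In spermatids compared with pachytene spermatocytes, 3 genes were higher (*Crem*, *Fhl5* and *Taf7l*) and 1 was lower (*Mybl1*), where 25.6% of the genes above background were higher and 44.3% lower. Over both steps, from prepachytene spermatocytes to spermatids, 6 members were higher and 1 lower, against 41.7% and 47.4% of the genes above background. The median difference of the 7 members was 2.43 in the step into pachytene and 0.08 in the step into spermatids, against 0.04 and -0.33 over the genes above background. The shares over all genes are high in these comparisons, and the member counts describe these 7 genes only.

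*Mybl1*, the pachytene activator, peaked in pachytene spermatocytes of both strains and was higher in PWD than in B6 at each stage. Its brightest probeset, 1456951_at, read 10.24 and 9.35 in PWD and 8.45 and 8.42 in B6 prepachytene spermatocytes. The values were 13.24 and 13.37 in PWD and 10.85 and 10.42 in B6 pachytene spermatocytes, and 10.94 and 11.45 in PWD and 8.74 and 8.68 in B6 spermatids. No 2 of the 6 groups overlapped, and PWD spermatids lay above B6 pachytene spermatocytes. Over both strains *Mybl1* was 7.24-fold higher in pachytene than in prepachytene spermatocytes (log2 difference 2.86 ± 0.21 SE, limma adjusted p = 7.6e-06) and 4.05-fold lower in spermatids than in pachytene spermatocytes (-2.02 ± 0.21, adjusted p = 1.3e-04). Spermatids stayed above prepachytene spermatocytes by 0.84 ± 0.21 (adjusted p = 0.0075). Within B6 this last difference was 0.27 with a 95% interval from -0.42 to 0.96 and did not pass, and within PWD it was 1.40 (adjusted p = 0.0049). The difference between the strains in this last change, 1.13, did not pass (adjusted p = 0.13).

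The strain difference of *Mybl1* was 2.56-fold in prepachytene spermatocytes, 6.36-fold in pachytene spermatocytes and 5.61-fold in spermatids, higher in PWD each time (1.36 ± 0.30, 2.67 ± 0.30 and 2.49 ± 0.30 on the log2 scale, adjusted p = 0.016, 9.5e-04 and 0.0011). The second probeset, 1450481_at, lay closer to the background level, with 6.49 and 6.69 in PWD and 5.35 and 4.55 in B6 prepachytene spermatocytes, 7.17 and 7.23 in PWD and 5.53 and 5.43 in B6 pachytene spermatocytes, and 5.32 and 5.32 in PWD and 4.63 and 4.71 in B6 spermatids. It gave the same direction between the strains, by 1.64 in prepachytene (adjusted p = 0.0027) and 1.71 in pachytene spermatocytes (adjusted p = 0.0032), while its difference of 0.65 in spermatids did not pass (adjusted p = 0.16) and had both groups below background. That difference passed when B6 prepachytene replicate 1 or replicate 2 was left out (adjusted p = 0.029 each). In prepachytene B6 was below background, so that PWD was at least 2.27-fold higher. In spermatids compared with prepachytene spermatocytes 1450481_at differed by -0.78 (adjusted p = 0.0042), where 1456951_at was higher, but 3 of the 4 groups were below background. This difference was 0.089 after a second quantile normalization and -0.28 with centring (adjusted p = 0.17), and did not pass with either. Both probesets were highest in pachytene, where the step of 0.57 into pachytene of 1450481_at (adjusted p = 0.019) did not pass without PWD pachytene replicate 2 or B6 pachytene replicate 1 (adjusted p = 0.051 and 0.057). With the mean of both probesets, spermatids and prepachytene spermatocytes differed by 0.03 (adjusted p = 0.83). On the compared arrays alone, the prepachytene strain calls of 1456951_at and 1450481_at did not pass (adjusted p = 0.093 and 0.072). That of 1456951_at was also lost with array weights (adjusted p = 0.082) and without B6 prepachytene replicate 1 (1.37) or replicate 2 (1.34). The strain calls of 1456951_at in pachytene spermatocytes and spermatids passed under all 22 alternatives.

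Of the genes that MYBL1 is known to act on in the piRNA pathway, 3 of 4 were measured, and they did not move together. *Piwil1*, the piRNA-binding MIWI, was 4.31 higher in pachytene than in prepachytene spermatocytes and 3.58 lower in spermatids than in pachytene (adjusted p = 2.7e-06 and 2.3e-05), the same order of steps as *Mybl1*. *Mov10l1*, a helicase of piRNA biogenesis, was 3.44 lower in pachytene and a further 2.10 lower in spermatids, and *Mael* did not pass in either step (0.05 and -0.13). In prepachytene spermatocytes *Piwil1* was lower in PWD than in B6 (-2.26, adjusted p = 0.0047), where *Mybl1* was higher in PWD. In pachytene spermatocytes *Mov10l1* was higher in PWD (0.93, adjusted p = 0.017), with *Piwil1* at -0.50 and *Mael* at 0.36, neither passing. The relatives *Myb* and *Mybl2* had means below the background level in 6 and 3 of the 6 groups.

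*Rfx2* was 3.50-fold higher in pachytene than in prepachytene spermatocytes, with no further change that passed in spermatids. Its one probeset above background, 1417332_at, read 7.99 and 7.08 in PWD and 7.05 and 6.85 in B6 prepachytene spermatocytes, 9.19 and 9.34 in PWD and 8.92 and 8.76 in B6 pachytene spermatocytes, and 8.94 and 9.25 in PWD and 9.16 and 8.78 in B6 spermatids. The difference into pachytene was 1.81 ± 0.21 (adjusted p = 1.2e-04), and that between spermatids and pachytene was -0.02 with a 95% interval from -0.50 to 0.46. The 4 groups of pachytene spermatocytes and spermatids overlapped with their neighbours in the order of means. No strain difference passed, at 0.58, 0.42 and 0.12 in prepachytene, pachytene and spermatids, with 95% intervals that reach up to 1.26, 1.10 and 0.80. Without PWD prepachytene replicate 2 the first was 1.03 and passed (adjusted p = 0.021). The other 3 probesets of *Rfx2* were below background in every group. One of them, 1433416_at, held 3.11 to 4.50 in pachytene spermatocytes and spermatids against 2.12 to 2.17 in prepachytene spermatocytes, and the other 2 lay between 2.15 and 3.96.

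The other RFX genes followed other courses. *Rfx1* and *Rfx3* were lower in pachytene than in prepachytene spermatocytes (-0.99 and -0.61, adjusted p = 0.0096 and 0.023) and higher in spermatids than in pachytene by 3.47 and 3.36 (adjusted p = 2.1e-05 and 6.5e-06). B6 pachytene *Rfx3* was below background, so that B6 spermatids were at least 15.6-fold higher. *Rfx4* and *Rfx8* were higher in pachytene by 3.74 and 4.55 (adjusted p = 2.9e-07 and 3.1e-06), as *Rfx2* was. *Rfx8* then did not pass in spermatids (0.19), and *Rfx4* was 1.45 lower there. Of the 8 measured relatives of *Mybl1* and *Rfx2*, 6 of them above background, 3 were higher and 4 lower in the step into pachytene. In the step into spermatids 3 were higher and 3 lower. The shares over the genes above background were 42.3% and 40.6% in the first step, and 25.6% and 44.3% in the second.

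*Crem* reached its highest level in spermatids, by its brightest probeset. This probeset, 1430847_a_at, read 7.93 and 7.94 in PWD and 7.87 and 7.32 in B6 prepachytene spermatocytes, 11.11 and 10.80 in PWD and 10.87 and 10.71 in B6 pachytene spermatocytes, and 11.85 and 12.14 in PWD and 12.09 and 11.99 in B6 spermatids. The 3 stages were apart on all 12 arrays, and the strains overlapped in pachytene spermatocytes and in spermatids. *Crem* was 8.63-fold higher in pachytene than in prepachytene spermatocytes (3.11 ± 0.14, adjusted p = 4.8e-07) and a further 2.21-fold higher in spermatids (1.14 ± 0.14, adjusted p = 3.6e-04). With the mean of the 4 *Crem* probesets the last difference was 0.03 (adjusted p = 0.92). The strain difference was 0.34 in prepachytene, 0.17 in pachytene and -0.05 in spermatids, with 95% intervals of -0.13 to 0.81, -0.30 to 0.64 and -0.52 to 0.43, and none passed.

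The other *Crem* probesets gave other patterns, as the plot of the further probesets shows. Probeset 1418322_at stayed within 7.55 and 9.13 on all arrays. It read 8.42 and 7.79 in PWD and 9.13 and 8.69 in B6 prepachytene spermatocytes, 8.16 and 8.68 in PWD and 8.97 and 8.67 in B6 pachytene spermatocytes, and 7.61 and 7.55 in PWD and 8.43 and 8.29 in B6 spermatids. PWD minus B6 was -0.80, -0.40 and -0.78 in the order of stages, and none passed. The first passed after a second quantile normalization (-1.18, adjusted p = 0.021) or with centring (-1.06, adjusted p = 0.017). Spermatids differed from prepachytene spermatocytes by -0.54 (adjusted p = 0.033), where 1430847_a_at differed by 4.25. This became 0.085 after a second quantile normalization and -0.04 with centring, and did not pass with either. The difference of 1418322_at into pachytene was 0.11 (95% interval -0.33 to 0.56), where 1430847_a_at rose by 3.11. In spermatids 1418322_at was 0.65 lower than in pachytene (adjusted p = 0.034), the opposite direction. This last call did not pass under 8 of 21 alternatives, 6 of them with 1 array left out: PWD pachytene replicate 2, B6 pachytene replicate 1, either array of PWD spermatids or either of B6 spermatids, at adjusted p = 0.068 to 0.115.

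Probeset 1449037_at was the one member probeset that passed the main test of a strain difference that depends on the population. It read 5.80 and 6.70 in PWD and 7.35 and 7.19 in B6 prepachytene spermatocytes, 8.19 and 8.31 in PWD and 7.05 and 6.73 in B6 pachytene spermatocytes, and 7.86 and 8.14 in PWD and 6.77 and 7.04 in B6 spermatids. PWD lay below B6 in prepachytene spermatocytes and above it afterwards, with no overlap in any of the 3 populations. In the step into pachytene it was 2.00 higher in PWD (adjusted p = 6.7e-04), and the difference in B6 was -0.38 and did not pass (adjusted p = 0.34). The change into pachytene differed between the strains by 2.38 ± 0.41 (adjusted p = 0.0091), and the test over all 3 populations gave F = 20.1 (adjusted p = 0.011). It passed under all 20 alternatives that could be run, at an adjusted p of 0.0017 to 0.043. The single strain differences of -1.02, 1.36 and 1.09 passed closely (adjusted p = 0.046, 0.02 and 0.049) and did not pass under 14, 5 and 14 of 21 alternatives. The first was lost without any 1 array other than PWD prepachytene replicate 2, and was -0.57 without PWD prepachytene replicate 1 (adjusted p = 0.135). The second was lost without any 1 of the 4 pachytene arrays, and the last without any 1 array other than those of PWD prepachytene. The last probeset of *Crem*, 1430598_at, was below background on all arrays, between 3.37 and 5.03. *Crem* is known to use several promoters and exons, so that probesets can read different transcripts, and the array was designed on sequence closer to B6. Which transcripts each probeset reads, and the part of sequence differences under the probes, was not tested.

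**Figure D2:**
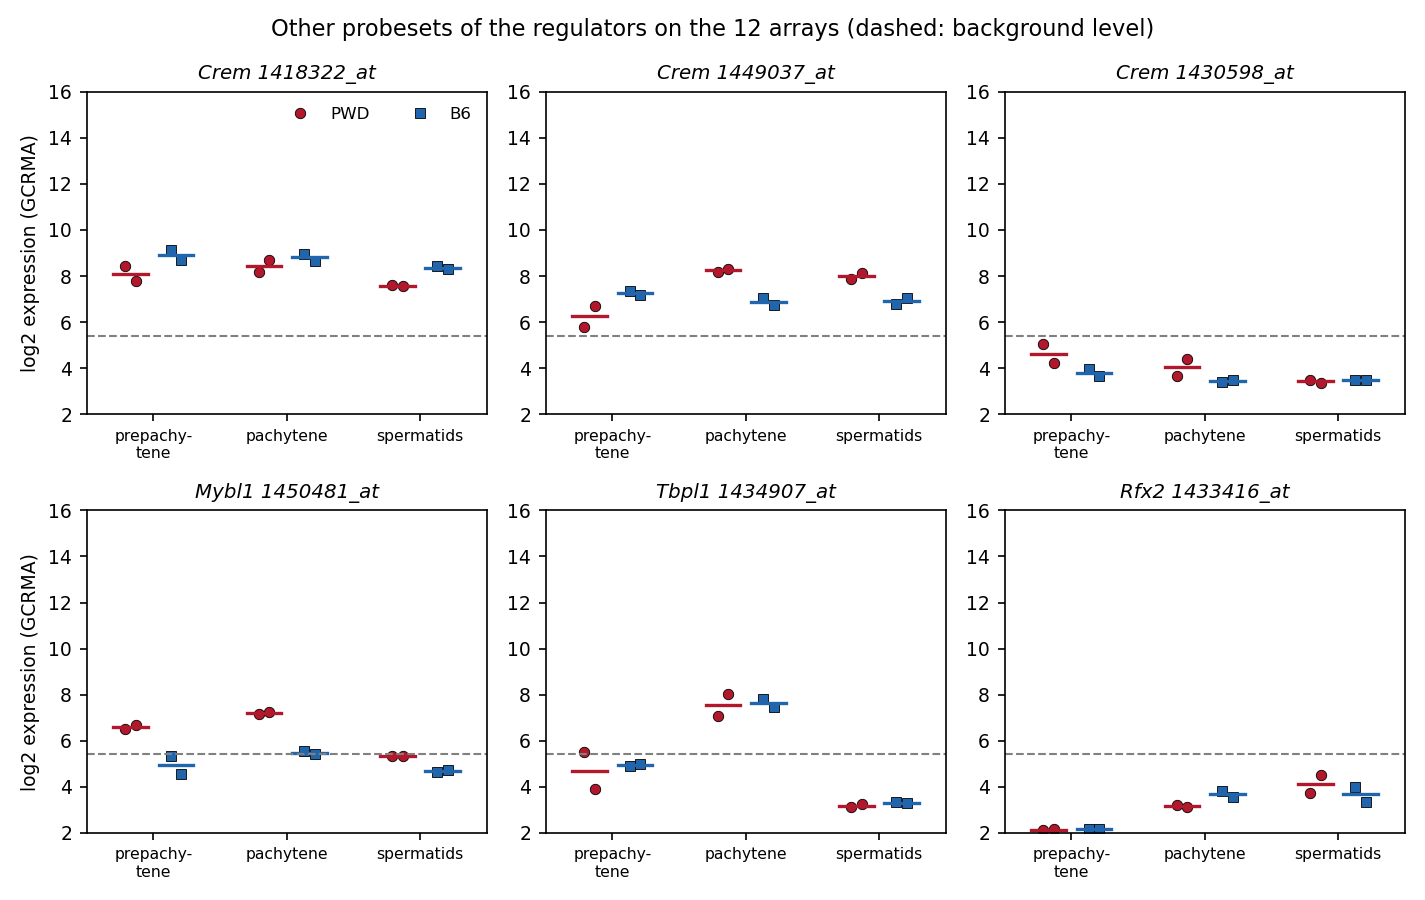
Log2 expression (y axis) of 6 further probesets of *Crem*, *Mybl1*, *Tbpl1* and *Rfx2* on the 12 arrays, by population (x axis), with PWD as red circles, B6 as blue squares, group means as short lines and the background level dashed. *Crem* 1449037_at is lower in PWD than in B6 in prepachytene spermatocytes and higher in pachytene spermatocytes and spermatids, and *Tbpl1* 1434907_at is above background in both strains in pachytene spermatocytes only.

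*Fhl5*, the coactivator of CREM, was highest in spermatids. Its probeset, 1449332_at, read 9.14 and 9.26 in PWD and 9.08 and 8.92 in B6 prepachytene spermatocytes, 10.19 and 9.06 in PWD and 9.41 and 9.43 in B6 pachytene spermatocytes, and 12.45 and 12.98 in PWD and 13.18 and 13.33 in B6 spermatids. All spermatid arrays lay above all spermatocyte arrays. The level was 11.0-fold higher in spermatids than in pachytene spermatocytes (3.47 ± 0.24, adjusted p = 1.4e-05). The step into pachytene was 0.43 with a 95% interval from -0.12 to 0.97. The 10.19 of PWD pachytene replicate 1 went with a spermatid marker mean of 10.36 on that array, against 9.68 for replicate 2, whose *Fhl5* value was 9.06. The part of spermatid RNA in this value was not tested. The step passed when replicate 2 of PWD pachytene was left out (0.71, adjusted p = 0.0053), and also after a second quantile normalization (0.73, adjusted p = 0.028) or with centring (0.66, adjusted p = 0.018). No strain difference passed (0.20, 0.20 and -0.54 in the order of stages).

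The 4 spermatocyte groups of *Fhl5* had means of 9.20 in PWD and 9.00 in B6 prepachytene, and 9.62 in PWD and 9.42 in B6 pachytene spermatocytes, whereas *Crem* was already higher in pachytene. Whether the step differed between the 2 genes was not tested. *Kif17*, the kinesin that moves FHL5 out of the nucleus in spermatids, was 3.16 higher in spermatids than in pachytene spermatocytes (adjusted p = 3.2e-05) after 0.18 in the step into pachytene. The general relative *Creb1* did not pass in the step into pachytene (0.14) and was 1.32 lower in spermatids (adjusted p = 0.001), the direction opposite to that of *Crem*. Among the CREB coactivators *Ep300* was 3.25 lower in pachytene (adjusted p = 1.3e-06). *Crtc1* was higher there (adjusted p = 4.5e-07), by at least 3.18-fold in PWD and 3.78-fold in B6, since its prepachytene arrays were below background. *Crtc2* and *Crtc3* were lower (adjusted p = 1.3e-06 and 4.6e-05) and below background in pachytene, with prepachytene spermatocytes at least 2.22-fold higher in PWD and 1.90-fold in B6 for *Crtc2* and at least 1.66-fold in PWD for *Crtc3*, whose B6 means were below background at both stages. Of the LIM-only relatives of FHL5, *Fhl4* was 2.89 higher in pachytene (adjusted p = 5.7e-07) with 0.10 in the step into spermatids, *Fhl1* was lower in pachytene (adjusted p = 3.8e-05), where it was below background, with prepachytene spermatocytes at least 11.1-fold higher in PWD and 3.29-fold in B6, and *Fhl2* and *Fhl3* were below background in all groups. Of the 12 measured members of the CREB family and its cofactors, 8 of them above background, 4 were higher and 5 lower in pachytene, and 3 were higher and 3 lower in spermatids. The shares over the genes above background were 42.3% and 40.6% in pachytene, and 25.6% and 44.3% in spermatids. *Atf1* was not measured by a probeset that names it alone.

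The 8 spermatid genes known to depend on CREM in mouse were all higher in spermatids than in pachytene spermatocytes, with a median difference of 3.66 against -0.33 over the genes above background. With values below background raised to it, the median was 3.22. *Tnp2* (5.25), *Tnp1* (4.20) and *Prm2* (4.10), which encode 2 transition proteins and a protamine, were among those with the largest fitted differences, with the kinase gene *Camk4*. *Camk4* was below background in pachytene, so that spermatids were at least 7.68-fold higher in PWD and at least 11.5-fold in B6. Against prepachytene spermatocytes, 5 of the 8 were higher in spermatids, 0 were lower and 3 did not pass. Over the genes above background, 41.7% were higher and 47.4% lower. Within B6 all 8 were higher, and within PWD 5 were higher and 2 lower. In PWD, *Prm2* averaged 13.36 in prepachytene spermatocytes and 11.89 in spermatids, and *Tnp2* 12.46 and 10.93. In the step into pachytene, in which *Crem* itself was 8.63-fold higher, 5 of the 8 were lower (*Tnp2* by -5.31 and *Prm2* by -4.30 among them), 1 was higher (*Ace*, adjusted p = 0.0058, below background in prepachytene spermatocytes) and 2 did not pass. Of the 8 genes, 6 are also in the list of spermatid markers, and that list was likewise lower in pachytene, in 13 of 20 genes, with 3 higher. The part of spermatid RNA in the prepachytene values of this step was not tested. Between the strains 3 of the 8 were higher and 0 lower in PWD in prepachytene spermatocytes, and 0 were higher and 3 lower in spermatids. Among the genes above background, 25.2% were higher and 8.39% lower in PWD in prepachytene spermatocytes, and 15.6% higher and 9.03% lower in spermatids. *Tnp1*, *Tnp2* and *Prm2* were higher in PWD than in B6 prepachytene spermatocytes (1.14, 1.74 and 1.72) and lower in PWD than in B6 spermatids (-0.89, -1.21 and -0.82). The calls in spermatids fell to 0 on the compared arrays alone and without PWD spermatids replicate 1, B6 spermatids replicate 1 or B6 spermatids replicate 2. The 20 spermatid markers moved with them, with 7 higher in PWD and a median of 0.85 in prepachytene spermatocytes, and 5 lower and a median of -0.67 in spermatids, and their part in these values was not tested. For the 3 genes the strain difference depended on the population (F = 25.7, 37.2 and 58.3, adjusted p = 0.0061, 0.0025 and 8.0e-04). The brightest probeset of *Crem* did not pass that test (F = 0.90, adjusted p = 0.55).

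*Tbpl1* and *Gtf2a1l*, relatives of general initiation factors, were both higher in pachytene than in prepachytene spermatocytes by their brightest probesets. *Tbpl1* by probeset 1431415_a_at read 12.62 and 13.01 in PWD and 12.33 and 12.25 in B6 prepachytene spermatocytes, 15.36 and 15.24 in PWD and 14.83 and 14.48 in B6 pachytene spermatocytes, and 14.66 and 14.94 in PWD and 14.65 and 14.62 in B6 spermatids. It was 5.38-fold higher in pachytene than in prepachytene spermatocytes (2.43 ± 0.12, adjusted p = 5.7e-07), and the difference of -0.26 in spermatids did not pass (95% interval -0.53 to 0.01). PWD pachytene spermatocytes stood above the other groups on every array. With the mean of both probesets, spermatids and prepachytene spermatocytes differed by 0.29 (adjusted p = 0.12). In prepachytene spermatocytes the strain difference of 0.53 did not pass (adjusted p = 0.063), but was 0.72 and passed without PWD prepachytene replicate 1 (adjusted p = 0.025). The strain difference in pachytene was 1.56-fold (0.64 ± 0.16, adjusted p = 0.04), but this call did not pass under 12 of 22 alternatives. It was 0.22 after a second quantile normalization (adjusted p = 0.41). It was also lost in the fits without 1 array each of B6 prepachytene, PWD pachytene or B6 spermatids, whichever replicate was left out, and without B6 pachytene replicate 2 (0.47, adjusted p = 0.22), at adjusted p = 0.062 to 0.22.

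The second *Tbpl1* probeset, 1434907_at, was a pachytene probeset. It read 5.51 and 3.89 in PWD and 4.88 and 4.97 in B6 prepachytene spermatocytes, 7.07 and 8.03 in PWD and 7.80 and 7.46 in B6 pachytene spermatocytes, and 3.10 and 3.23 in PWD and 3.32 and 3.29 in B6 spermatids. Spermatids were below background on all 4 arrays, so that pachytene spermatocytes were at least 4.43-fold higher than spermatids in PWD and at least 4.67-fold higher in B6 (fitted difference of spermatids and pachytene -4.36, adjusted p = 3.4e-05). The brighter probeset showed no such fall. Which transcripts the 2 probesets read was not tested. With the mean of both probesets in place of the brighter one, *Tbpl1* was 2.31 lower in spermatids than in pachytene (adjusted p = 8.5e-06).

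*Gtf2a1l* by probeset 1418426_at read 11.39 and 12.13 in PWD and 10.70 and 10.50 in B6 prepachytene spermatocytes, 14.59 and 14.62 in PWD and 14.19 and 14.00 in B6 pachytene spermatocytes, and 14.32 and 14.64 in PWD and 14.42 and 14.35 in B6 spermatids. It was 9.02-fold higher in pachytene than in prepachytene spermatocytes (3.17 ± 0.16, adjusted p = 7.7e-07) and the difference in spermatids was 0.08 (95% interval -0.29 to 0.45). With centred arrays, which raise the median of all probesets by 0.26 in that step, it was 0.34 (adjusted p = 0.038). In prepachytene spermatocytes it was 2.24-fold higher in PWD than in B6 (1.16 ± 0.23, adjusted p = 0.0091), and the difference was 0.51 in pachytene (adjusted p = 0.17) and 0.10 in spermatids. That in pachytene passed when PWD prepachytene replicate 1 or replicate 2 was left out (adjusted p = 0.046 each). The dependence on the population did not pass (F = 5.64, adjusted p = 0.10), but did without PWD prepachytene replicate 1 (F = 24.4, adjusted p = 0.0090). The prepachytene call was lost on the compared arrays alone (adjusted p = 0.084) and without B6 prepachytene replicate 2 (1.06). Markers of other cells moved with it: in prepachytene spermatocytes the 20 spermatid markers had a median strain difference of 0.85, 7 of them higher in PWD, and the 12 Sertoli cell markers 1.07, 4 of them higher in PWD and 1 lower. The 14 pachytene and diplotene markers had a median of 0.50, 4 of them higher in PWD and 2 lower. For the 11 spermatogonia markers the median was 0.02, with 2 higher and 1 lower. The part of all these cells in the *Gtf2a1l* and *Mybl1* values was not tested.

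By chromosome the 7 genes were spread widely on the GRCm38.p6 assembly, with *Mybl1* at chr1:9667407-9700439, *Fhl5* at chr4:25199907-25242852, *Tbpl1* at chr10:22703877-22732666, *Rfx2* at chr17:56775897-56831008, *Gtf2a1l* at chr17:88665493-88715157, *Crem* at chr18:3266354-3337773 and *Taf7l* at chrX:134460116-134476505.

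*Taf7l* was the one member that was lower in pachytene than in prepachytene spermatocytes, and in the step into spermatids it was higher, as *Crem* and *Fhl5* were. Its probeset, 1420433_at, read 11.51 and 12.05 in PWD and 13.38 and 13.58 in B6 prepachytene spermatocytes, 4.77 and 3.14 in PWD and 5.45 and 4.75 in B6 pachytene spermatocytes, and 7.41 and 8.06 in PWD and 8.08 and 8.28 in B6 spermatids. In pachytene spermatocytes 3 of 4 arrays were below background and the other lay at 5.45, so that sizes are bounds there: PWD prepachytene spermatocytes were at least 82.9-fold above PWD pachytene spermatocytes, and PWD spermatids at least 5.01-fold. The fitted difference was -8.11 ± 0.36 in the step into pachytene (adjusted p = 4.0e-07) and 3.43 ± 0.36 in the step into spermatids (adjusted p = 1.3e-04). Spermatids differed from prepachytene spermatocytes by -4.68 (adjusted p = 7.4e-06).

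The gene is on the X chromosome, which is silenced in mid-late pachytene of normal males, and *Taf7l* moved in the direction of most X-linked genes. Of 189 X-linked genes above background, 75.7% were lower in pachytene than in prepachytene spermatocytes, with a median of -4.02. In spermatids compared with pachytene spermatocytes, 84.1% were higher, with a median of 3.06. Genes count as above background by their mean over all arrays, so that genes low in pachytene can enter by their level in other populations. The part of silencing of the X chromosome in the *Taf7l* values was not tested. In prepachytene spermatocytes *Taf7l* was lower in PWD than in B6 with no overlap, by -1.70, which did not pass (adjusted p = 0.056, 95% interval -2.89 to -0.52). It passed under 6 of 22 alternatives, such as the test of probesets above background alone (adjusted p = 0.0077), centring of the arrays (-1.96, adjusted p = 0.014) and the fits without PWD pachytene replicate 1 or 2 (adjusted p = 0.012 each). Without PWD pachytene replicate 1 the strain difference in pachytene was -1.95. It then rested on a single PWD array at 3.14 and a B6 mean of 5.10, both below background.

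Subunits of TFIIA, TFIIB and TFIID, the general counterparts of these factors among them, moved in both directions. Of 14 measured subunits of TFIIA, TFIIB and TFIID, 3 were higher and 9 lower in pachytene than in prepachytene spermatocytes, with a median of -1.65 against 0.04 over the genes above background, of which 40.6% were lower. *Tbp*, the TATA-binding protein itself, was 1 of the 3 that were higher, by 1.17 (adjusted p = 2.9e-04), and did not pass in spermatids (-0.30). *Gtf2a1* did not pass in the step into pachytene (-0.54) and was 2.80 lower in spermatids (adjusted p = 2.4e-04), where *Gtf2a1l* did not pass. *Taf7* was lower in both steps, by -2.11 and -1.74 (adjusted p = 9.4e-05 and 5.3e-04), while *Taf7l* was higher in the step into spermatids. Spermatid *Taf7* was below background, so that pachytene was at least 2.84-fold higher than spermatids in PWD and at least 2.47-fold in B6. Among the subunits with the largest fitted differences in pachytene were *Taf4b* (-7.33) and *Taf4* (-3.81), and the X-linked *Taf1* and *Taf9b*. The last 2 were below background on the pachytene arrays, so that prepachytene spermatocytes were at least 98.4-fold higher in PWD and at least 27.5-fold in B6 for *Taf1*, and at least 43.8-fold in PWD and 54.5-fold in B6 for *Taf9b*. In the step into spermatids 3 subunits were higher and 4 lower, where 25.6% of the genes above background were higher and 44.3% lower.

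**Figure D3:**
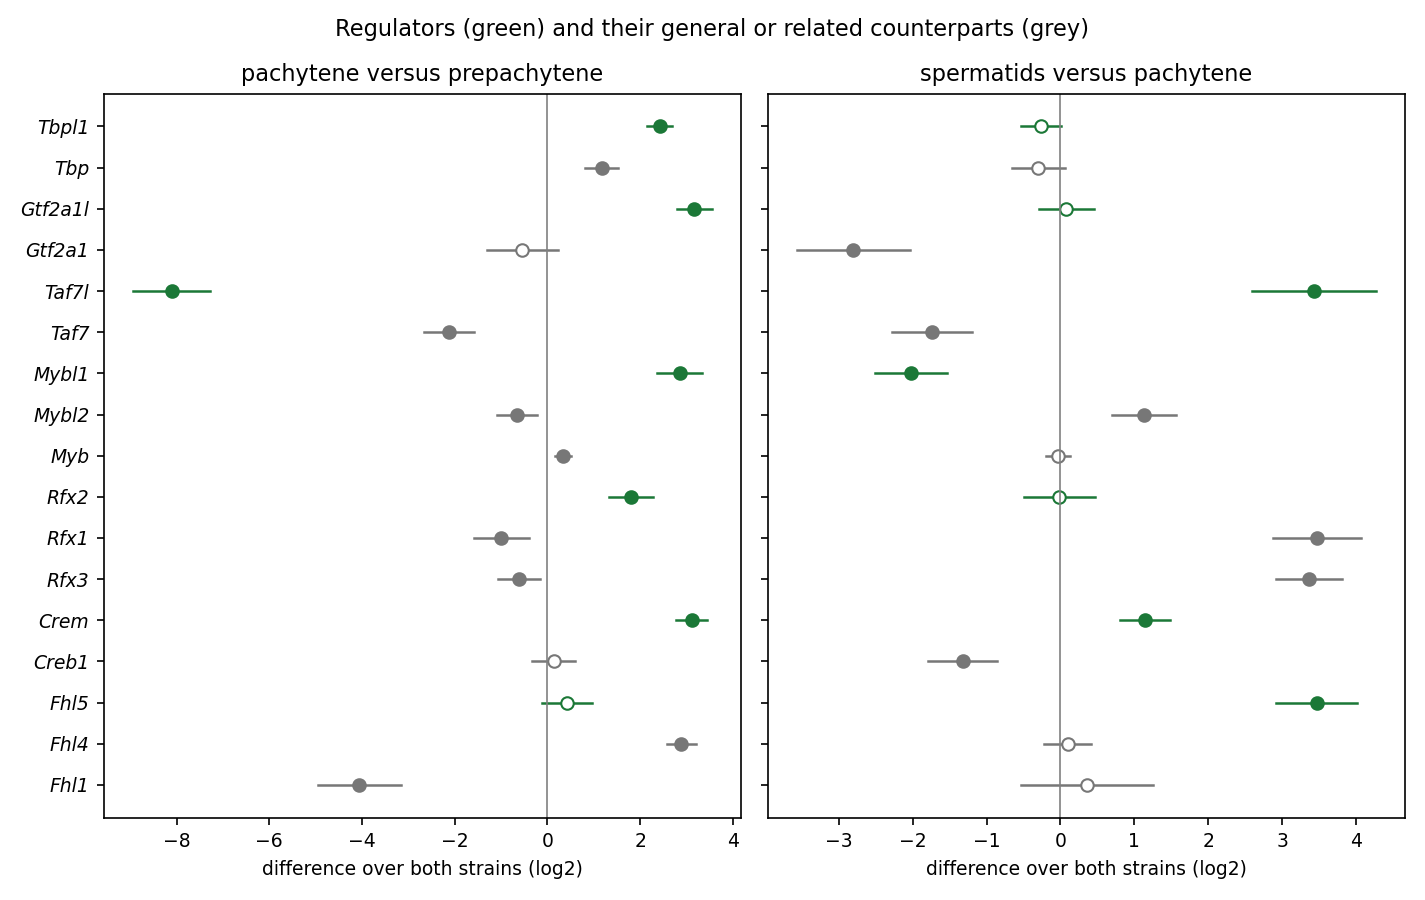
Log2 difference over both strains (x axis) in pachytene versus prepachytene spermatocytes and in spermatids versus pachytene spermatocytes, for the 7 regulators (green) and their general or related counterparts (grey). Points are limma estimates, bars 95% intervals, and filled points passed at an adjusted p of 0.05. *Gtf2a1l* is higher in pachytene and *Gtf2a1* lower in spermatids, and *Rfx1* and *Rfx3* are higher in spermatids where *Rfx2* is not. *Myb*, *Mybl2*, pachytene *Taf7l*, spermatid *Taf7*, pachytene and spermatid *Fhl1* and B6 pachytene *Rfx3* lie near or below the background level.

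Between the strains, 2 of the 7 genes were higher in PWD in prepachytene spermatocytes (*Mybl1* and *Gtf2a1l*), 2 in pachytene spermatocytes (*Mybl1* and *Tbpl1*) and 1 in spermatids (*Mybl1*), and 0 were lower by their brightest probeset. Of the genes above background, 25.2%, 21.6% and 15.6% were higher in PWD, and 8.39%, 6.32% and 9.03% were lower. Over the genes above background the median difference was 0.31, 0.38 and 0.10. When arrays were centred on the probesets above background, which moves the median of all probesets to -0.26, -0.25 and -0.12, *Mybl1* remained 1.10, 2.36 and 2.40 higher in PWD (adjusted p = 0.014, 2.2e-04 and 1.5e-04) and *Gtf2a1l* 0.91 higher in prepachytene spermatocytes (adjusted p = 0.0057), but *Tbpl1* in pachytene did not pass (0.33, adjusted p = 0.073). With 0 of 7 brightest probesets passing, no dependence of a strain difference on the population was found by limma, against 24.5% of the genes above background. Before adjustment 2 of the 7 were under the threshold, *Mybl1* and *Gtf2a1l*. Both passed after adjustment without PWD prepachytene replicate 1, *Mybl1* with F = 16.9 (adjusted p = 0.019).

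**Figure D4:**
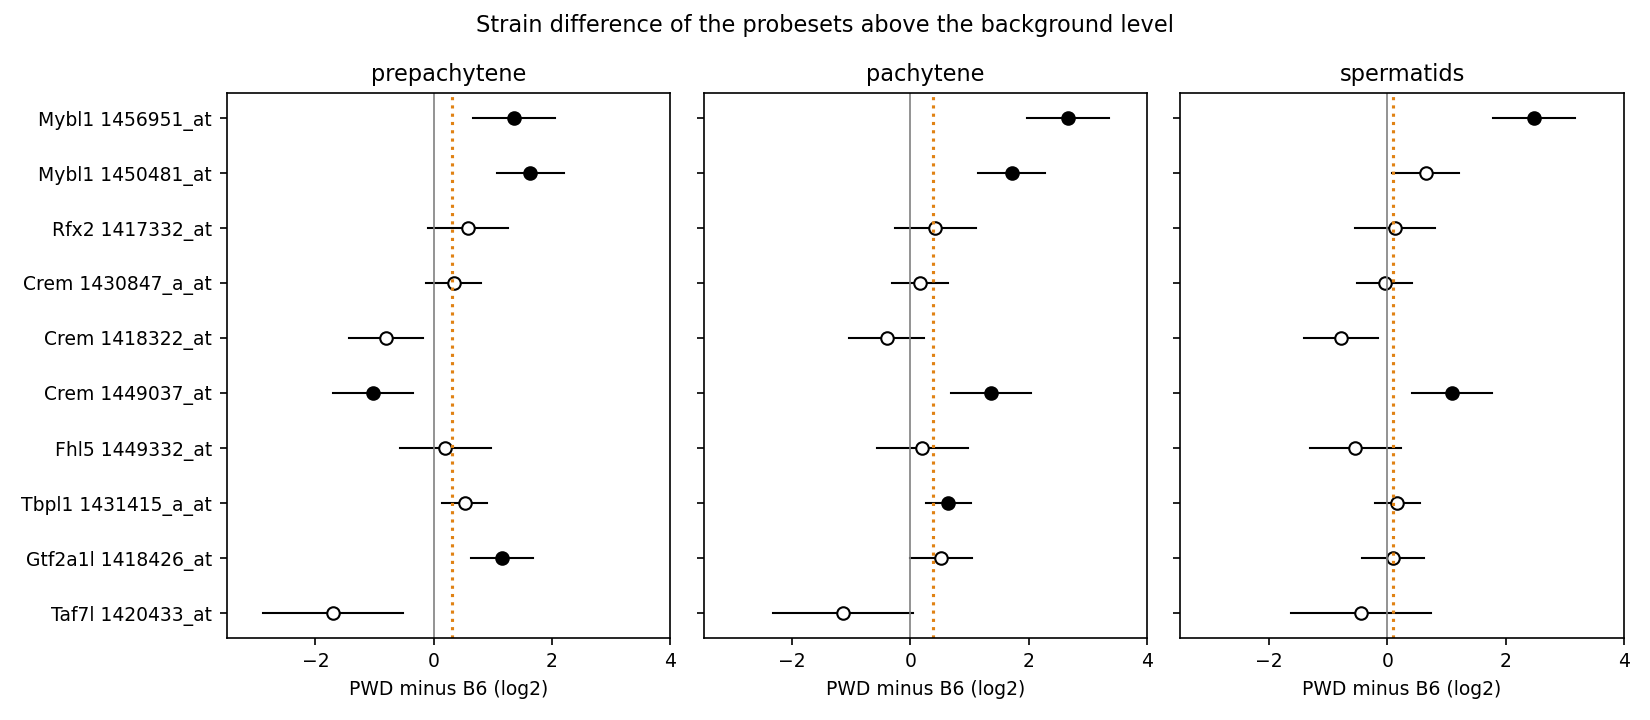
PWD minus B6 difference (x axis, log2) of the 10 member probesets above the background level in each population, with 95% intervals. Filled points passed at an adjusted p of 0.05 in limma, and the dotted line is the median over the 8804 genes above background. Both *Mybl1* probesets lie to the right in all 3 populations, and *Crem* 1449037_at changes side between prepachytene and pachytene spermatocytes.

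Of 10 other regulators of meiotic and postmeiotic germ cells, 7 of them above background, 4 were higher and 1 lower in pachytene, and 4 were higher and 5 lower in spermatids. The shares over the genes above background were 42.3% and 40.6% in pachytene, and 25.6% and 44.3% in spermatids. *Pou5f2*, a POU factor of the testis, was 5.65 higher in pachytene and 5.33 lower in spermatids (adjusted p = 1.3e-08 and 3.0e-07), as *Mybl1* peaked in pachytene. *Sox5* was higher in both steps, by 2.89 and 3.46 (adjusted p = 1.1e-04 and 7.3e-05), as *Crem* was. *Ovol1* was higher in pachytene (adjusted p = 2.5e-05) and lower in spermatids (adjusted p = 8.1e-04), with prepachytene and spermatid arrays below background, so that pachytene was at least 1.34-fold above both in PWD and at least 2.79-fold in B6. *Spz1* was 1.31 lower in pachytene and 3.18 higher in spermatids. *Hsf2*, a heat shock factor, was higher in PWD at each stage (adjusted p = 0.026, 0.016 and 8.3e-04). Its B6 arrays were all below background, so that PWD spermatids were at least 13.1-fold higher, whereas PWD prepachytene and pachytene spermatocytes lay close to background themselves, at 5.52 and 5.56.

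By correlation over the 12 arrays, which share 6 groups and therefore their stage and strain, the genes closest to *Mybl1* were *Pctp* (r = 0.988), *Dcaf6* (0.983) and *Man1b1* (0.978). *Rfx2* was closest to *Irak1bp1* (0.987), *Mib1* (0.986) and *Khdrbs3* (0.984), and *Crem* to *Rtn1* (0.996), *Actl7b* (0.994) and *Nme5* (0.994). *Fhl5* was closest to *Nckap1l* (0.997), *Vwa3a* (0.996) and *Calr3* (0.995), *Tbpl1* to *Elof1*, *Dnaaf1* and *Camsap1* (0.996 each), and *Gtf2a1l* to *Armc3* (0.999), *Capsl* (0.998) and *1700020D05Rik* (0.998). The closest to *Taf7l* were *Ap1s2* (0.991), *Maged1* (0.990) and *Fmr1nb* (0.989), all 3 on the X chromosome. Among the members, *Tbpl1* and *Gtf2a1l* were closest to each other (0.986), *Crem* came nearest to *Gtf2a1l* (0.950), and *Fhl5* and *Mybl1* were farthest apart among the pairs without *Taf7l* (-0.11). *Taf7l* correlated negatively with each of the other 6, from -0.92 with *Tbpl1* to -0.17 with *Fhl5*.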

How the data were processed

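RNA of sorted testicular cells was hybridized to Affymetrix mouse genome arrays, 12 in all. The authors deposited log2 values, given as GCRMA in the submitters' processing notes, with no version in the sources used here. GCRMA removes a background estimated from probe sequences, brings arrays to 1 distribution and summarizes each probeset. The methods name the matching array among those hybridized, and RMA for another design, which the deposited probesets do not match. Probes follow a reference closer to B6, so sequence differences of PWD can lower PWD values, and quantile normalization can shift values where populations differ in RNA content.

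Without 64 controls, the 45037 probesets were fitted in limma 3.58.1 (R 4.3.3) as 6 group means, with a trended variance prior. P-values were adjusted by Benjamini-Hochberg over all probesets of a comparison, at a threshold of 0.05. The replicate number was not a block, since replicate differences correlated at -0.28 to 0.11 between groups. The number of arrays limits the precision. Tables and plots were made in Python 3.11.15 (numpy 2.4.6, pandas 2.3.3; plots in matplotlib 3.10.9). The fit was tested on simulated data. Of 34945 probesets naming 1 gene, the platform annotation was updated through RefSeq (2 not found). Named were all members and their probesets, up to 4 genes of a list with the largest difference, the members' counterparts and the 3 genes most correlated with each member. Members and lists were chosen with earlier results of these data known. Alternatives were a second quantile normalization, centring, filters, variance priors, blocks, array weights, gene means, fits on the compared arrays and leaving out each array. A planned comparison of protein sequences was not run.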

Additional observations from a re-analysis of the deposited data

Results flagged for a closer look

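Probeset 1449037_at of *Crem* differed between the strains in its change over the populations. The change into pachytene was 2.38 larger in PWD than in B6 on the log2 scale, the change over both steps was 2.11 larger (adjusted p = 0.012), and the limma test of the strain difference over the 3 populations gave F = 20.1. The part of sequence differences under its probes was not tested. Among the genes known to depend on CREM, the strain difference of *Prm2* (F = 58.3), *Tnp1* (F = 25.7) and *Tnp2* (F = 37.2) also depended on the population, under all 21 alternatives run for each. The 20 spermatid markers moved between the strains in the same directions, with a median of 0.85 in prepachytene spermatocytes and -0.67 in spermatids, and their part in this dependence was not tested. With 2 arrays in each group, single arrays were not tested as outliers.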

How the results depend on the processing

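Over 179 single results and their alternatives, 3668 of 3844 values kept their side of the threshold, 107 lost it, 66 gained it and 3 reversed. The reversed ones were *Crem* 1418322_at and *Mybl1* 1450481_at in spermatids versus prepachytene (0.085 and 0.089 after a second quantile normalization) and *Crem* in PWD spermatids versus pachytene (-0.16 with the mean of its probesets). The cause was not tested. Of the member counts between stages, those higher in pachytene than in prepachytene were 6 in place of 5 with the second quantile normalization and with centring, and 5 to 6 with 1 array left out. Those higher in spermatids than in pachytene were 4 in place of 3 with centring. With the gene mean, 2 genes in place of 3 were higher and 2 in place of 1 lower in spermatids than in pachytene, and 4 in place of 6 were higher in spermatids than in prepachytene. Under the other alternatives these counts did not differ. Of the genes higher in PWD in pachytene, 1 in place of 2 was left with the second quantile normalization, centring, the compared arrays alone, the replicate block (1) and the gene mean, and 1 to 3 with 1 array left out. In prepachytene the count higher in PWD was 0 on the compared arrays alone, 1 with array weights and 0 to 3 with 1 array left out. The count lower in PWD in prepachytene was 1 in place of 0 with centring, the probesets above background alone, the compared arrays alone and the gene mean, and 0 to 1 with 1 array left out. In pachytene it was 0 to 1 with 1 array left out. The dependence on the population was found for 2 genes with the probesets above background alone, and for 0 to 2 with 1 array left out. Without PWD pachytene replicate 1, 1 gene was lower in PWD in pachytene, and without PWD prepachytene replicate 1, 2 genes passed the test of dependence. With an array left out, the lone array of its group is assumed to vary like the other groups. The replicate block changed no other member count. Over all probesets, centring turned the calls in spermatids versus pachytene from 5465 higher to 23883, and those lower in PWD from 3028 to 13298 in prepachytene and from 1886 to 7409 in pachytene. The compared arrays alone gave 2649 and 1567 probesets higher in PWD in prepachytene and pachytene, against 5341 and 3890, and array weights 2987 and 8842. Of 15 member probesets, 10 were above the background level, against 12 and 9 with a lower and a higher level. The 72 list counts gave 1584 values under the alternatives, of which 1404 were within 1.5 times of the main count.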
